A study of Mus musculus with 24 samples.

Results

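The change of m6A enrichment in *Mettl14* KO mouse embryonic stem (ES) cells was measured as the log2 ratio of immunoprecipitated (IP) over input RNA in the knockout minus the same ratio in WT26 cells. The contrast rests on 8 MeRIP-seq libraries of the 24 libraries of the series: input and IP of replicates 1 and 2 of each line, with each IP set against the input of the same number. Its members are genes, and 21524 of the 47937 genes in the count table passed the filter on low counts and were tested. WT26 are wild type ES cells of 129/Sv × C57Bl6 background, and the *Mettl14* KO is a single CRISPR/Cas9 clone (A10) of WT26 with a frame shift in *Mettl14*. Both lines were grown on gelatin with serum replacement and LIF. With 1 clone, effects of the clone and of the genotype cannot be told apart. RBC cells (Rosa26 BirA-V5, Cre-ERT2) and a *Mettl3* KO clone (2c4d) derived from them supplied 8 further MeRIP-seq libraries, and 4 RNA-seq samples of WT26 and *Mettl14* KO gave RNA levels. The RNA was nuclear and the libraries were depleted of ribosomal RNA according to the study's methods, although the labels call it total RNA, and several MeRIP reactions were combined for each replicate.

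N6-methyladenosine is placed on mRNA by a complex in which METTL3 is the catalytic subunit and METTL14 binds the RNA and holds METTL3 in its active form. WTAP, VIRMA, ZC3H13 and RBM15 attach to this core, and YTH proteins read the mark. The mark falls mainly in a GGAC-like context, in long exons and near stop codons, and in ES cells it is known on mRNAs of pluripotency and early response genes, whose turnover it speeds up. The 4-base core GGAC is shown in capitals in the coding stretches below, read 5′ to 3′ on the gene's strand (GRCm38). The first pair are the satellite-like predicted genes whose enrichment fell in *Mettl14* KO, and the others are coding ends, next to the stop codon, of genes whose enrichment did not change detectably.

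Gm10801, longest coding exon, chr2:98662237-98662522, plus strand: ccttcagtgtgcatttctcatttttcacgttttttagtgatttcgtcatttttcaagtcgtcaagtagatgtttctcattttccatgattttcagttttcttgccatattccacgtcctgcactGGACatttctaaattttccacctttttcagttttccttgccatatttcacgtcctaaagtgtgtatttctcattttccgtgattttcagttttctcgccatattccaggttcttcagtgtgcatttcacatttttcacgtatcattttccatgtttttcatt
Gm10800, longest coding exon, chr2:98666741-98667040, minus strand: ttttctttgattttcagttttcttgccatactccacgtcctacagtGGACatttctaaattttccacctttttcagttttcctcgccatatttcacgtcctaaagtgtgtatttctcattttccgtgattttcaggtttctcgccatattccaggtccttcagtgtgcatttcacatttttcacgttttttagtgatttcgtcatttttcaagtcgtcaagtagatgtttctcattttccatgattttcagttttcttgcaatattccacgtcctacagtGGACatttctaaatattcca
Ier2, coding end, chr8:84662089-84662238, minus strand: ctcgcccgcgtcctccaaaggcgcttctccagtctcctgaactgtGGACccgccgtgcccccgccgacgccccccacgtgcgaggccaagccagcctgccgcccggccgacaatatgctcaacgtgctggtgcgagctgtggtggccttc
Klf4, coding end, chr4:55528128-55528277, minus strand: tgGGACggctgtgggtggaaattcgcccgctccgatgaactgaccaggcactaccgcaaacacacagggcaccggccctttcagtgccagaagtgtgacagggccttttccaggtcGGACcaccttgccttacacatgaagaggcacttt
Sox2, coding end, chr3:34651223-34651372, plus strand: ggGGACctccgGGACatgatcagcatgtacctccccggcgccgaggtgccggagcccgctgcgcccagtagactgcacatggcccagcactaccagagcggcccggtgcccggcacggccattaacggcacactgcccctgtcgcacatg

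The Gm10801 exon held 1 GGAC, the Gm10800 exon 2, and the coding ends of *Ier2*, *Klf4* and *Sox2* 1, 2 and 2. GGAC was found in 75.8% of the first 286 coding bases of 17057 genes and in 49.2% of the last 150 coding bases of 17611 genes, so the motif is common in windows of these lengths. The Gm10801 and Gm10800 exons shared an identical stretch of 86 bases and matched at 96.5% of 144 aligned bases. The Gm10800 gene matched itself at 67.2% of bases when shifted by 234, against a median of 30.8% over shifts. For the Gm10801 gene the best shift was 58, with 37.3% against a median of 27.7%. Soft-masked repeat sequence covered 89.2% of the Gm10801 exon and 98% of the Gm10800 exon, and 56.7% and 99.2% of the whole genes. Reads of these near-identical stretches can map to either gene or to satellite repeats elsewhere, so the counts of both are uncertain.

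The 8 libraries held between 9394163 and 22971529 counts, and up to 28.4% of the gene counts of a library fell on a single gene (Gm26917, in an input of *Mettl14* KO). Replicates of a group differed far more than counting noise (chi-square per degree of freedom between 40.5 and 122), so the replicates were separate libraries. All 8 ES cell markers were detected in the inputs of both lines, and their summed normalized counts were 18720 and 20256 (WT26) and 14424 and 16279 (*Mettl14* KO). The 11 primitive endoderm markers, of which 8 were detected and none was at 0, summed to 10151 and 12037 counts in WT26 and to 4153 and 4641 in *Mettl14* KO inputs, the 14 neuronal markers to 1591 and 1602 against 1211 and 1303, the 18 two-cell-like genes to 164 and 289 against 54.7 and 139, and the 13 primed and mesoderm markers to 688 and 742 against 226 and 324. Most of the endoderm sum came from the basement membrane genes *Lama1* and *Col4a1*, with means of 5438 and 2004 input counts and RNA-seq changes of -1.52 and -0.99 (log2), while in RNA-seq the median of the list was 1.62, with *Gata6* at 1.41. The part of such cells in the results was not tested. In bulk RNA fewer cells of a type and less RNA per cell cannot be told apart. The study's methods call the MeRIP replicates biological, while the labels do not say whether they came from separate cultures, and p-values measure the spread between these samples.

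*Mettl14* RNA itself was present in every library of the knockout, as a frame shift allele allows, and these counts do not test the deletion. Normalized input counts of WT26 were 246 and 282 and those of *Mettl14* KO 262 and 229, and its IP counts 261 and 195 against 182 and 104. The enrichment of *Mettl14* had a change of -0.60 ± 0.38 (log2, SE), which edgeR did not call (adjusted p = 1). In RNA-seq *Mettl14* had a log2 change of -0.31 ± 0.09 (SE, adjusted p = 0.00609 by edgeR), with 401 and 358 normalized counts in WT26 and 296 and 316 in the knockout. *Mettl3*, the catalytic partner, had 412 and 357 input counts in WT26 and 641 and 503 in *Mettl14* KO, the groups not overlapping. In RNA-seq *Mettl3* rose by 0.41 ± 0.07 on the log2 scale (SE, adjusted p = 0.000112 by edgeR), while its m6A enrichment had a change of 0.40 ± 0.33 (adjusted p = 1).

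Of the 21524 genes, 1 lost m6A enrichment in *Mettl14* KO, which is 0.00465% of the genes, and 0 gained it when calls were made up to an adjusted p of 0.05. The fit was edgeR's quasi-likelihood test on all 16 MeRIP-seq libraries, with a term for every pair of input and IP and an IP effect for each line. At an unadjusted p under 0.05 there were 75 genes lower and 74 higher, and DESeq2's Wald test called 1 lower and 0 higher. A second fit, the replicate block, added an IP effect of replicate number 2 shared by all lines, because the IP libraries of number 2 were more strongly enriched in every line. With it 4 genes were lower and 6 higher (0.0186% and 0.0279% of genes), and 287 and 326 passed an unadjusted p of 0.05. DESeq2 with the same block called 2 genes lower and 2 higher.

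The gene called in both fits was Gm10801 (ENSMUSG00000075015.3), a predicted protein-coding gene on chromosome 2 between 98662237 and 98664083. WT26 held 112 and 75.7 normalized counts in the inputs and 339 and 173 in the IPs, a log2 ratio of 1.59 and 1.18. *Mettl14* KO held 872 and 356 counts in the inputs but 57.0 and 39.7 in the IPs, a log2 ratio of -3.92 and -3.15. The input thus rose while the IP fell, and no value of one line lay within the range of the other for either. Its fitted log2 ratio in *Mettl14* KO was -3.59, far below the median of 0.07 over all genes in that line. In *Mettl3* KO the ratio of Gm10801 was 0.46. How much of the fall in *Mettl14* KO is loss of m6A was not tested. Enrichment fell by 4.99 on the log2 scale (SE 0.39, 95% interval -5.88 to -4.11, adjusted p = 0.00668 by edgeR), and with the replicate block by 5.10 (SE 0.27, adjusted p = 7.56e-11). Without the block the call was lost when WT26 replicate 1 (-4.78, adjusted p = 0.106) or *Mettl14* KO replicate 1 (-4.56, adjusted p = 0.0542) was left out, and when the terms for pairs were dropped (-5.08, adjusted p = 1). RNA-seq gave the same direction of RNA level as the inputs, with 75.1 and 60.1 counts in WT26 and 1879 and 1825 in *Mettl14* KO, a log2 change of 4.76 ± 0.11 (adjusted p = 1.58e-15).

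Gm10800 (ENSMUSG00000075014.1), which lies next to Gm10801 on the opposite strand between 98666547 and 98667301, lost enrichment in the fit with the replicate block. Its inputs held 1581 and 654 counts in WT26 against 269 and 238 in *Mettl14* KO, and its IPs 5725 and 3577 against 436 and 512. The log2 ratios were 1.86 and 2.45 in WT26 and 0.70 and 1.10 in *Mettl14* KO, so the pairs did not overlap. The change was -1.25 ± 0.19 (SE, 95% interval -1.64 to -0.85, adjusted p = 0.00558 with the replicate block and 1 without it). The input counts of Gm10800 were lower in both *Mettl14* KO libraries, where those of Gm10801 were higher, and in RNA-seq Gm10800 had a log2 change of -0.29 ± 0.15 (adjusted p = 0.122 by edgeR). In *Mettl3* KO its enrichment fell by 1.19 (adjusted p = 0.00174 with the replicate block), and the difference between the knockouts was -0.06 ± 0.27 (adjusted p = 0.956).

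Satellite-like predicted genes numbered 13, and 9 of them were tested, of which 1 was called lower and with the replicate block 2. The enrichment call was passed by 5 of the 9 in WT26, by 0 in *Mettl14* KO, by 2 in RBC and by 1 in *Mettl3* KO. Shares of all genes were 15.1%, 11.9%, 13.8% and 2.33%, in the same order. Their median change was -1.63 (log2), against 0.00 over all genes. The 4 members Gm10722, Gm10715, Gm11168 and Gm10718 had at most 3 counts in each *Mettl14* KO input. Fitted changes of these 4 were 3.29, 2.65, 0.62 and -2.73. The median of the list was -2.53 with these inputs set to 3 counts per library, a step that can only lower a change. All 5 members above that limit were lower in both replicate numbers. The limit is on *Mettl14* KO inputs, which enter the change with a minus sign. It thus leaves out members whose change low inputs push up, so this agreement is in part fixed by the limit. Gm21738, on chromosome 14 between 19415857 and 19418930, had log2 ratios of 1.73 and 2.38 in WT26 and 0.71 and -0.49 in *Mettl14* KO, a change of -1.83 ± 0.60 (adjusted p = 1). Gm26870, a lincRNA on chromosome 9 (3000282 to 3038313) that overlaps other members of the list, had a change of -1.63 ± 0.69 (adjusted p = 1). The list was chosen with earlier results of these data known, and its members share repeated sequence, so they are no separate measurements. The satellite repeat subfamily counts of the same table moved with them: GSAT_MM (major satellite) fell by 1.56 ± 0.19 (adjusted p = 0.000291 with the replicate block, 1 without) and SYNREP_MM by 2.56 ± 0.23, while MMSAT4 had a change of -0.10 ± 0.19 (adjusted p = 1). The inputs of SYNREP_MM, like those of Gm10801, were higher in *Mettl14* KO, with 10842 and 3136 normalized counts against 200 and 447 in WT26, and it was depleted in the IP of both lines.

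The other genes called with the replicate block did not pass the enrichment call in WT26. Fam196a (on chromosome 7) had log2 ratios of -0.13 and 0.30 in WT26 and -1.13 and -1.33 in *Mettl14* KO. The pairs did not overlap. Its enrichment fell by 1.30 ± 0.24 (log2, SE, adjusted p = 0.0309 with the replicate block), and its RNA-seq level fell by 2.92 ± 0.27 (adjusted p = 5.46e-08 by edgeR). Its MeRIP-seq inputs did not fall to that extent, with 278 and 309 normalized counts in WT26 and 218 and 248 in *Mettl14* KO. The gene overlaps *Dock1*, so reads of the longer gene can be counted with it. Among the 6 higher genes, Gm24187 and Gm24270, annotated as miRNA genes, were depleted in the IP of WT26, with log2 ratios of -3.71 and -3.62 and of -3.30 and -3.17. In *Mettl14* KO the ratios were -2.34 and -0.74 and -2.05 and -1.32, with changes of 2.09 ± 0.27 and 1.54 ± 0.27 with the replicate block. Both also rose in *Mettl3* KO, by 1.36 and 1.35 (adjusted p = 0.0053 and 0.00627 by edgeR with the block). The difference between the knockouts was not called for either (adjusted p = 0.466 and 0.879 by edgeR with the block). Gm24270 overlaps *Peak1*. Mir6236 had log2 ratios of -0.86 and -3.19 in WT26 and 1.09 and 0.50 in *Mettl14* KO (change 2.81 ± 0.46). Rprl2, a ribozyme gene, had -5.78 and -4.92 against -3.26 and -4.84 (change 1.99 ± 0.32), so that number 2 was nearly equal in both lines. Gm47295, Gm8178 and Tcte3 had 0 counts in 1 or more libraries of a group, so their fitted changes depend on a prior count and are not given as folds.

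**Figure D1:**
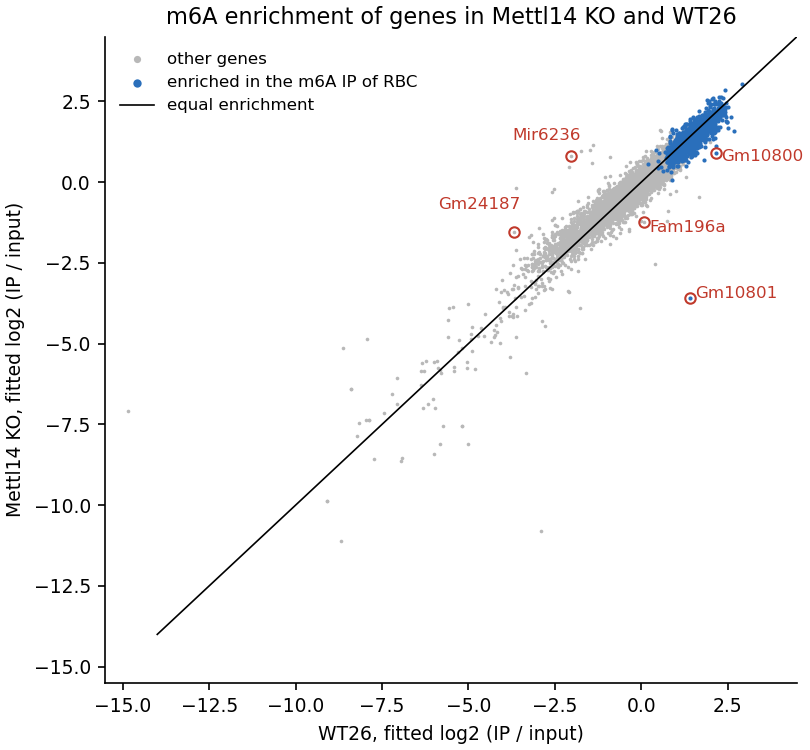
Fitted log2 ratio of IP over input in WT26 (x axis) and *Mettl14* KO (y axis) for the 12402 genes whose inputs averaged 50 or more normalized counts; blue points are genes enriched in the IP of RBC, and the line marks equal values. Gm10801, Gm10800 and Fam196a lie below the line. Gm24187 and Mir6236 lie above it, Gm24187 depleted in both lines and Mir6236 in WT26 alone.

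A gene was taken as enriched in a line when its fitted log2 ratio of IP over input exceeded 1 and edgeR's adjusted p did not exceed 0.05. WT26 had 3260 such genes (15.1% of those tested), *Mettl14* KO 2570 (11.9%), RBC 2975 (13.8%) and *Mettl3* KO 502 (2.33%). Among the 3260 of WT26, 2270 were enriched in *Mettl14* KO too (69.6%) and 304 in *Mettl3* KO (9.33%). In RBC, which carries no knockout, 2533 of the 3260 were enriched, so not all passed between lines without a knockout either. Of the 990 genes that passed in WT26 and not in *Mettl14* KO, 978 had a log2 ratio above 0 in *Mettl14* KO and 475 above 1. A further 300 genes passed in *Mettl14* KO and not in WT26. With the replicate block the counts were 4066, 3702, 3917 and 2073. WT26 then shared 3128 genes with *Mettl14* KO, and 1498 of its 4066 genes (36.8%) with *Mettl3* KO. The share for *Mettl3* KO thus depended strongly on the fit. Over the 3260 genes the median fitted log2 ratio of *Mettl3* KO was 0.89, just under the limit of 1, while that of *Mettl14* KO was 1.39. Across the 12402 genes with at least 50 input counts, the fitted ratios of WT26 and *Mettl14* KO correlated with r = 0.965 and those of WT26 and RBC with r = 0.970, against 0.844 for RBC and *Mettl3* KO. These are correlations across genes, which share libraries and are not replicates.

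Loss or retention over m6A-marked genes was described on the 2975 genes enriched in RBC, of which 82.1% were protein-coding. They were chosen by the ratio of RBC, whose libraries are not in the contrast, but the filter and the dispersion came from all 16 libraries. With 1 library pair of WT26 or *Mettl14* KO left out, the list held 3006 to 3233 genes. In every line the IP of number 2 was the stronger: the median log2 ratio over these genes was 1.10 and 1.88 for WT26, 1.06 and 1.81 for *Mettl14* KO, and for RBC 1.13 and 1.94. In *Mettl3* KO it was 0.62 and 1.20. The median change from WT26 to *Mettl14* KO was -0.05 in number 1 and -0.06 in number 2, smaller than the step between the numbers within any line.

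Over these 2975 genes the median change in *Mettl14* KO was -0.06 on the log2 scale, with quartiles of -0.22 and 0.08, against a median of 0.00 and quartiles of -0.19 and 0.22 over all 21524 genes. Gm10801 was called among them, and with the replicate block Gm10800 as well. In both replicate numbers 942 (31.7%) had a lower and 542 (18.2%) a higher ratio in *Mettl14* KO, against 24.5% and 25.7% of all genes tested. No overlap between the 2 pairs of each line, with *Mettl14* KO lower, was seen for 166 of them (5.58%), against 1842 (8.56%) of all genes. With *Mettl14* KO higher it was seen for 113 of the 2975, against 1800 of all 21524 genes. Both directions were thus scarcer among these genes. Their step between the numbers within a line exceeded the median change, which makes pairs overlap, so these counts do not show that loss was rarer. In *Mettl3* KO the median over the same list was -0.62, or -0.61 with quartiles of -0.87 and -0.37 with the replicate block, but RBC libraries chose the list and enter that contrast. Over the 3260 genes enriched in WT26, chosen by the ratio of WT26 with a dispersion and filter that RBC and *Mettl3* KO libraries shared, the median change in *Mettl3* KO was -0.58.

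**Figure D2:**
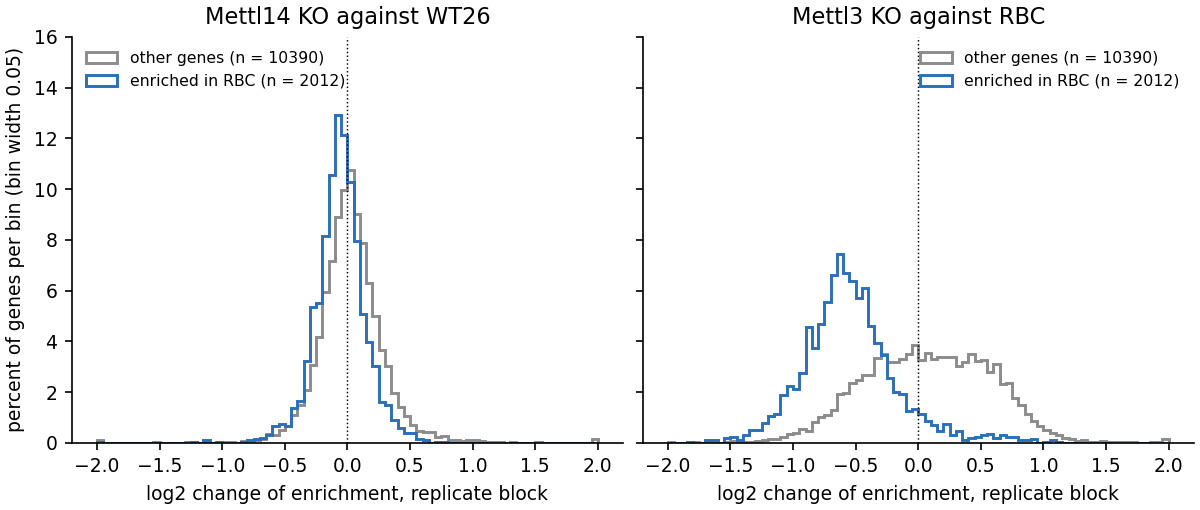
Share of genes (y axis, percent per bin of 0.05) by log2 change of enrichment with the replicate block (x axis, values beyond ±2 set to the ends) in *Mettl14* KO against WT26 (left) and *Mettl3* KO against RBC (right), for 2012 genes enriched in RBC (blue) and for other genes (grey) with at least 50 input counts. On the left both curves centre near 0 (blue median -0.06), and on the right the blue curve has its median at -0.57.

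The intervals show which losses the data could have missed. In the fit with pairs alone, the 95% interval of the change had a median reach of ±1.16 (log2) over the 2975 genes, and for 2248 of them (75.6%) it included a loss of 2-fold or more. With the replicate block the median reach was ±0.53. Over the 2012 of these genes with at least 50 input counts it was ±0.45, and for 1898 genes (94.3%) the whole interval lay within a 2-fold change either way. For 83 genes the interval with the block still reached a 2-fold loss, and for 1 gene, Gm10801, it lay wholly below it. An interval wholly below 0 was found for 41 of the 2012 genes (2.04%) and wholly above 0 for 8 (0.398%), against 1.17% and 1.41% of all 12402 genes at that input level. These intervals are not adjusted for the number of genes.

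**Figure D3:**
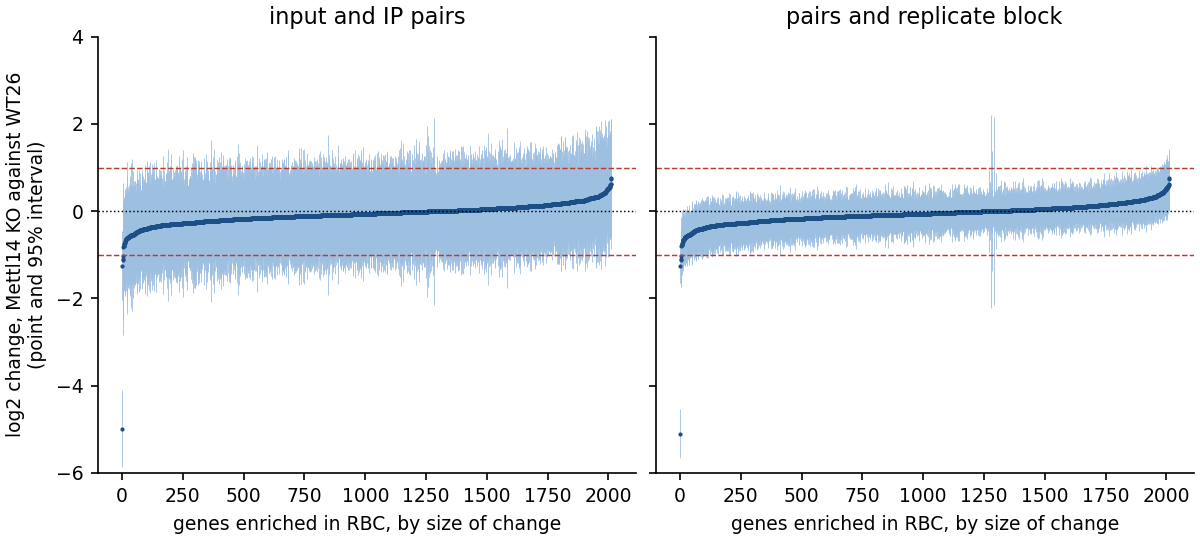
Log2 change of enrichment in *Mettl14* KO against WT26 (y axis) of the 2012 genes enriched in RBC with at least 50 input counts, ordered by size (x axis), with 95% intervals from the fit with pairs (left) and with the replicate block (right); dashed lines mark 2-fold changes and bars are cut at -6. Intervals are narrower on the right, isolated long bars stand at changes near 0 where the standard error was unstable, and Gm10801 lies alone near -5.

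Genes that kept their enrichment were taken as those enriched in both WT26 and *Mettl14* KO whose interval for the change lay above a 2-fold loss. There were 621 (27.4% of the 2270 enriched in both), and 2389 (76.4% of 3128) with the replicate block. Among the 621 the highest enrichment in RBC, with at least 50 input counts, was that of *Ier5l*, *Gbx2*, Gm13036, *Epop*, *Foxd3*, *Jund*, *Lrfn4*, *Tlnrd1*, *Mrpl57* and *Lactb*. *Gbx2* and *Foxd3* encode transcription factors of naive and early pluripotent cells. *Gbx2* had log2 ratios of 1.77 and 2.88 in WT26 against 2.16 and 3.11 in *Mettl14* KO, and *Foxd3* 1.77 and 2.73 against 2.20 and 3.05, each ratio higher in the knockout within its number. The rule favours such genes, since at these errors an interval above a 2-fold loss is reached more easily by a positive change, so the direction is not a result. Their changes were 0.32 ± 0.53 and 0.40 ± 0.58 (SE), or 0.32 ± 0.23 and 0.38 ± 0.24 with the replicate block. Their RNA-seq levels fell, *Gbx2* by 1.76 ± 0.12 (log2, adjusted p = 9.91e-10 by edgeR), and *Foxd3* from 284 and 337 normalized counts in WT26 to 59.1 and 42.9 (adjusted p = 5.34e-10). *Jund*, an AP-1 subunit gene that overlaps Gm11175, had a change of 0.36 ± 0.60. *Epop*, which encodes a cofactor of Polycomb repressive complex 2, had 2.13 and 2.47 against 2.16 and 2.74.

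Among all genes with at least 50 input counts, the highest enrichment in RBC was found for *Cbr3*, Gm27937, *Jrkl*, *Purg*, Gm44297, Gm11175, 0610012G03Rik, *Fjx1*, 2900097C17Rik and AI837181. None was called, and their changes in *Mettl14* KO ran from -0.21 to 0.42. Gm27937 overlaps *Tug1*, Gm44297 *Hist1h2af* and Gm11175 *Jund*, so reads cannot be assigned to them alone. *Cbr3*, which encodes a carbonyl reductase, had log2 ratios of 1.50 and 2.29 in WT26 and 1.41 and 1.97 in *Mettl14* KO. Its change was -0.20 ± 0.44, or -0.19 ± 0.26 with the replicate block, while in *Mettl3* KO it fell by 1.67 (adjusted p = 0.0053 by edgeR with the block and 0.776 without it). That fall subtracts the RBC ratio for which *Cbr3* was chosen, and RBC inputs held 14.6 and 13.9 counts against 73.9 and 74.2 in WT26.

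Of 32 pluripotency factors tested, 15 passed the enrichment call in RBC, 12 in WT26 and 14 in *Mettl14* KO, but 1 in *Mettl3* KO. The shares of all genes were 13.8%, 15.1%, 11.9% and 2.33%. None was called for a change of enrichment in *Mettl14* KO in either fit, and the median change was 0.05. The interval reached a 2-fold loss for 12 of the 32 in the fit with pairs alone and for 1 with the replicate block. *Klf4* had log2 ratios of 1.47 and 2.45 in WT26 and 1.56 and 2.32 in *Mettl14* KO, a change of -0.02 ± 0.17 with the replicate block, and *Sox2* 1.44 and 2.40 against 1.64 and 2.86, a change of 0.33 ± 0.17. *Nanog* had a change of -0.17 ± 0.17, *Klf2* of -0.21 ± 0.19, *Sall4* of -0.01 ± 0.17 and *Myc* of 0.59 ± 0.27 with the block, none called (adjusted p = 1 for each). *Etv5* (-0.40 ± 0.16) and *Lin28b* (-0.42 ± 0.18) had intervals below 0 with the block, and 1 other factor had one above 0, again not called. *Dppa3*, a maternal factor, had a mean of 7.38 input counts and a change of 1.20 ± 1.11. In *Mettl3* KO 11 of the 32 were lower and 2 higher with the block (7.87% and 4.46% of all genes were) and 0 without it, with a median of -0.46. In RNA-seq 4 of the 32 factors were lower and 3 higher by more than 2-fold, against 6.57% and 7.95% of all genes. *Tet2*, a DNA hydroxylase, fell by 1.54 ± 0.06 (log2) and the Nodal inhibitor *Lefty1* rose by 3.08 ± 0.16, while their changes of enrichment were -0.01 ± 0.40 and 0.27 ± 0.45.

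The m6A machinery showed no called change. Of 11 writer genes 3 were enriched in RBC, 4 in WT26 and 3 in *Mettl14* KO (13.8%, 15.1% and 11.9% of all genes), with a median change of -0.10. *Rbm15*, an adaptor that recruits the complex to RNA, had a change of -0.11 ± 0.16 with the replicate block and its paralogue *Rbm15b* of -0.09 ± 0.17. The changes of *Wtap*, *Virma* and *Zc3h13* were -0.21 ± 0.20, -0.26 ± 0.17 and 0.08 ± 0.17. With the block the interval lay wholly below 0 for 1 of the 11 writer genes and wholly above 0 for 0. In *Mettl3* KO 4 of the 11 writer genes were lower with the block (7.87% of all genes were) and 0 without it. Of 15 readers and erasers 3, the cytoplasmic readers *Ythdf1*, *Ythdf2* and *Ythdf3*, passed the enrichment call in both WT26 and *Mettl14* KO. Their changes were -0.08 ± 0.18, 0.13 ± 0.17 and 0.01 ± 0.17 with the block. *Fto* and *Alkbh5*, the demethylases, did not pass it in either line and had changes of -0.05 ± 0.17 and -0.15 ± 0.19.

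Over all genes 13.8% were enriched in RBC, 15.1% in WT26 and 11.9% in *Mettl14* KO. Of 29 immediate early genes, which are transcribed first after a signal, 22 were enriched in RBC, 20 in WT26 and 16 in *Mettl14* KO. Their median change was -0.09 and none was called. *Ier2* had ratios of 1.81 and 2.83 in WT26 and 1.65 and 2.93 in *Mettl14* KO (change -0.04 ± 0.17 with the block), and *Ier5l* a change of 0.53 ± 0.29. *Ier5*, with a mean of 12.1 input counts, had a change of -0.73 ± 0.57. Among 375 zinc finger genes of the Zfp series, 257 were enriched in RBC, 265 in WT26 and 234 in *Mettl14* KO, with a median change of -0.07. The median was 0.02 in number 1 and -0.18 in number 2, 108 of the 375 (28.8%) were lower and 53 (14.1%) higher in both numbers, against 24.5% and 25.7% of all genes, and 0 were called in *Mettl14* KO in either fit. In *Mettl3* KO 101 were lower and 0 higher with the block, against 7.87% and 4.46% of all genes, and 0 were called without it. Of 51 chromatin regulators 10 were enriched in RBC, 6 in WT26 and 7 in *Mettl14* KO, with a median change of -0.01 with the block. *Asxl1*, *Setd2* and *Arid1a* had changes of -0.07 ± 0.17, -0.00 ± 0.17 and -0.08 ± 0.16.

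Over all genes 13.8% were enriched in RBC. In other lists these were 6 of 87 ribosomal protein genes, 6 of 64 histone genes, 1 of 21 housekeeping genes, 0 of 125 small nucleolar and Cajal RNAs, 1 of 17 SR splicing factors and 3 of 32 nuclear noncoding RNAs. Medians of the change in *Mettl14* KO were, in the same order, 0.02, -0.05, 0.03, -0.01, 0.07 and 0.04. In *Mettl3* KO with the replicate block the medians were 0.65, 0.67, 0.51, 0.49, 0.30 and 0.30, and 52 of the 87 ribosomal protein genes were called higher (4.46% of all genes were), with 0 called without the block. Mitochondrially encoded RNAs had a median of 0.22 in *Mettl14* KO, made of 0.42 in number 1 and -0.05 in number 2, so the numbers disagreed. The 11 two-cell-like genes had a fitted median of 0.32 with quartiles of -1.24 and 0.67, but medians of -0.03 in number 1 and 0 in number 2. Members with inputs at 0, such as Gm4340, enter that fit at values that depend on a prior count. Other small lists had medians of 0.24 for 11 primitive endoderm markers, -0.02 for 6 primed and mesoderm markers and -0.10 for 11 neuronal markers, with 0 called in each of the 4 lists. *Zscan4e*, a two-cell-like gene with a mean of 12.7 input counts, had log2 ratios of 2.17 and 2.09 in WT26 and 0.50 and 0.72 in *Mettl14* KO, a change of -1.51 ± 0.69 (adjusted p = 1). In RNA-seq 6 of 9 primitive endoderm markers were higher and 1 lower by more than 2-fold, against 7.95% and 6.57% of all genes.

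**Figure D4:**
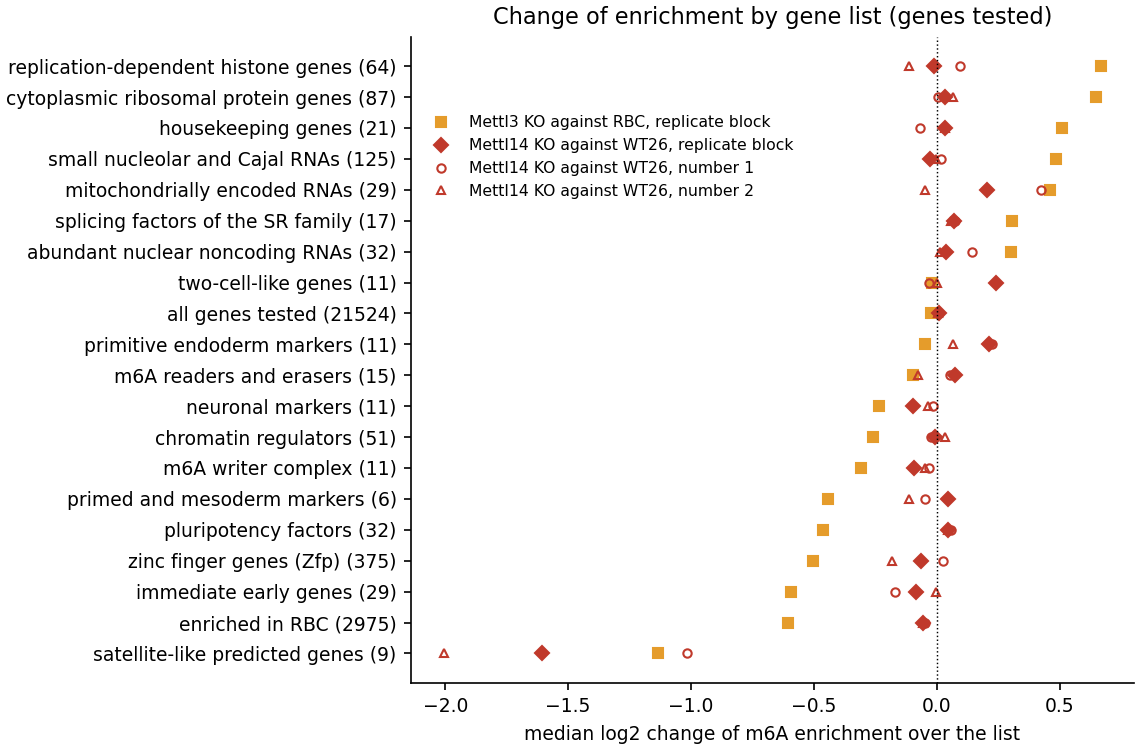
Median log2 change of enrichment (x axis) over each gene list, with the number of genes tested in brackets; red diamonds are *Mettl14* KO against WT26 and orange squares *Mettl3* KO against RBC, both with the replicate block, and open symbols are *Mettl14* KO in number 1 and number 2. Apart from the satellite-like list at -1.61, the diamonds lie between -0.10 and 0.24, while the squares run from -1.13 to 0.67.

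The change in *Mettl14* KO varied little with transcript features. For 1818 protein-coding genes enriched in RBC with at least 50 input counts, split into 4 bins by longest exon, the median change with the replicate block was -0.03, -0.07, -0.06 and -0.06 from the shortest (median 780 bases) to the longest (4456 bases). In *Mettl3* KO the same bins had -0.45, -0.61, -0.59 and -0.60. By GGAC per kilobase the bins of *Mettl14* KO had -0.06, -0.06, -0.05 and -0.04, and by enrichment in RBC -0.05, -0.04, -0.06 and -0.05. By mean input count they had -0.07, -0.07, -0.06 and -0.03 from the least to the most abundant. The longest exon had a median of 2128.5 bases in RBC-enriched and 1448 bases in 8805 other protein-coding genes, and GGAC occurred 4.21 and 4.05 times per kilobase, with 3.39 and 3.41 for its reverse complement. These are descriptions over genes and carry no test.

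Single genes were compared between the 2 replicate numbers. Over 2012 RBC-enriched genes with at least 50 input counts, the changes in number 1 and number 2 of *Mettl14* KO correlated across genes with r = 0.0984, against r = 0.530 for *Mettl3* KO. The same genes share their libraries within a number, so r is a description only.

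**Figure D5:**
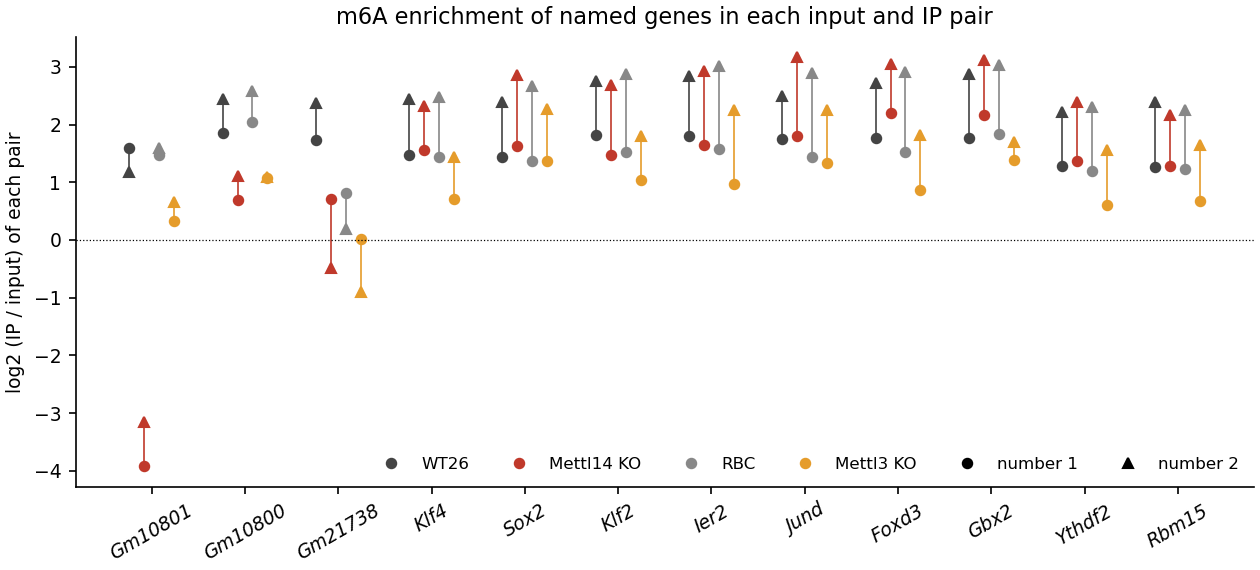
Log2 ratio of IP over input (y axis) of 12 named genes in each pair of libraries of the 4 lines; circles are number 1 and triangles number 2, joined by a line. For Gm10801 *Mettl14* KO lies at -3.92 and -3.15, far below the other lines; for Gm10800 and Gm21738 it lies below WT26, and for the other genes its range overlaps that of WT26.

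The changes of the 2 knockouts were compared directly by the difference of their changes of enrichment. In the fit with pairs 0 genes differed (85 lower and 159 higher in *Mettl14* KO at an unadjusted p under 0.05, and 1 lower and 0 higher by DESeq2), and with the replicate block 5 were lower (0.0232% of genes) and 1 higher (0.00465%). DESeq2 with that block called 0 lower and 13 higher. Gm10801 was among the 5, with a difference of -4.02 ± 0.41 (adjusted p = 1.87e-05 with the replicate block and 0.975 without it). Over the 2975 genes enriched in RBC the median difference was 0.54, with *Mettl14* KO the higher, given without a test and with RBC in both the choice and the contrast. In *Mettl3* KO itself 1694 genes were lower and 960 higher with the block, and 0 and 0 without it (622 and 289 at an unadjusted p under 0.05, and 0 and 0 by DESeq2).

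RNA levels of the same lines were compared by RNA-seq, as a simple contrast whose precision is unlike that of the change of enrichment. There 1353 of 17021 genes were higher (7.95%) and 1118 lower (6.57%) in *Mettl14* KO by more than 2-fold (edgeR, adjusted p up to 0.05). Of 2648 RBC-enriched genes measured there, 125 were higher and 227 lower, with a median log2 change of -0.11 against -0.00 over the genes tested in both assays. Across 1927 RBC-enriched genes with at least 50 input counts, the RNA-seq change and the change of enrichment with the block correlated with r = -0.114, and across all 11559 such genes with r = 0.0544. Both values are descriptions across genes.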

How the data were processed

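MeRIP-seq (16 libraries, input and IP of 4 lines with 2 replicates) and RNA-seq (8 libraries) were taken as raw counts, which the authors deposited per gene and, for MeRIP-seq, per repeat subfamily, without normalization. According to the submitters' processing notes, cutadapt 1.8.1, STAR 2.6.0c and GRCm38 were used, and DESeq2 1.26.0 for their own tests. Multimapping reads were kept in the MeRIP-seq counts, which affects genes with repeated sequence. All columns matched a sample's title (0 were left out), and totals of the 8 libraries compared ranged from 9394163 to 22971529.

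Counts were tested with edgeR 4.0.16 (quasi-likelihood, two-sided) in R 4.3.3, with DESeq2 1.42.0 size factors, filterByExpr and Benjamini-Hochberg adjustment over all 22621 features, on all 16 libraries. Normalized counts are counts divided by size factors. Ratios of single pairs used a pseudocount of 0.5. Intervals cover 95% and take the standard error from the F statistic, so 10 genes (16 with the replicate block) have none. RNA-seq was fitted over its 8 libraries with the same test. Scripts were tested on simulated data.

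Pairing by number comes from the labels. Deviations of same-numbered IP libraries of different lines correlated across 12716 genes with r between 0.567 and 0.792, those of inputs with r between 0.246 and 0.454, and those of input and IP within a line with r between 0.214 and 0.302. The replicate block, chosen after seeing the data, adds an IP effect of the number.

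Members and lists were chosen with earlier results of these data known. Genes were named as follows: up to 10 called genes per direction with at least 50 input counts and no overlap between pairs, the 10 kept genes and the 10 genes with the highest enrichment in RBC, 3 top members of each list, and *Mettl14* and *Mettl3*. Genes called with the replicate block alone, all writer, reader and pluripotency genes, and satellite-like members were added after their values were seen. Alternatives were other normalizations, filters, tests, libraries and each replicate left out. Sequences were read from the GRCm38 genome with GENCODE annotation.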

Additional observations from a re-analysis of the deposited data

Results flagged for a closer look

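A difference between the knockouts in the change of enrichment was called for Gm10801, Gm8178 and Gm47295 by the test of that difference itself, in edgeR's fit with the replicate block. For Gm10801 the difference was -4.02 ± 0.41 (log2, SE, adjusted p = 1.87e-05), made of a change of -5.10 in *Mettl14* KO and of -1.09 in *Mettl3* KO. For Gm8178, a processed pseudogene that overlaps *Zfp978*, the fitted difference was 16.1, and for Gm47295, a miRNA gene that overlaps Rn7s1, it was -9.51. Both rest on libraries with 0 counts, so these fitted values depend on the prior count and are no measure of size. Without the replicate block none of the 3 passed (adjusted p = 0.975, 1 and 1).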

How the results depend on the processing

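With 2 pairs in each line, the spread between replicates limited the comparison more than depth. Medians over all genes moved between -0.02 and 0.02 across settings. Scaling by size factors or TMM holds these medians near 0, so they do not measure a shift of enrichment shared by all genes. Changes are relative to the other genes of a library, and a shared shift was not tested.

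Without terms for pairs (no replicate block) 0 genes were lower, and with no filter on low counts 6 were lower and 14 higher. With the replicate block, chosen after seeing the data, 4 were lower and 6 higher, also under TMM and under size factors of genes alone, against 3 and 6 with library size alone, 12 and 19 in the 8 libraries compared, and 2 and 2 by DESeq2. Leaving out 1 replicate in turn gave 0 to 1 lower without the block, and with it 2 to 14 lower and 4 to 26 higher, the most without *Mettl3* KO replicate 2 (12 and 22 without its replicate 1, 7 and 10 without *Mettl14* KO replicate 1, 6 and 18 without its replicate 2, and 6 and 17 without RBC replicate 2). Library size alone raised the enriched genes to 5835 in WT26, 5265 in *Mettl14* KO and 5955 in RBC, and with the block to 6661, 6217 and 6761. With 1 replicate left out, enriched genes numbered 2 to 3404 in WT26, 1 to 2811 in *Mettl14* KO and 1 to 3233 in RBC, the lowest without replicate 2 of the line itself. The median over genes enriched in RBC ran from -0.48 to 0.37 when 1 replicate was left out without the block. WT26 and *Mettl14* KO hold different replicate numbers when 1 of theirs is left out, and the median was -0.48 without WT26 replicate 1 and -0.45 without *Mettl14* KO replicate 2, against 0.33 without WT26 replicate 2 and 0.37 without *Mettl14* KO replicate 1. Without RBC replicate 2 the list held 1 gene, whose change was -0.42, so no median of a list can be given there.

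For the difference between the knockouts, DESeq2 called 1 lower, no filter gave 6 lower and 3 higher, and the replicate block 5 and 1, also under TMM and size factors of genes alone, with 3 and 1 under library size alone and 13 higher by DESeq2. Leaving out 1 replicate with the block gave 3 to 1464 lower and 1 to 1504 higher, the highest without *Mettl3* KO replicate 1, against 12 and 44 without its replicate 2, 24 and 14 without *Mettl14* KO replicate 1, 7 and 4 without its replicate 2 or WT26 replicate 2, and 11 and 2 without RBC replicate 2. The fitted change of Gm8178 ran from -0.26 to 9.99 with 1 replicate left out without the block, and was -0.33 with it, both negative values without WT26 replicate 2. The cause was not tested for any of these. The replicate block turned no called direction among the named genes.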
